A study of Mus musculus with 12 samples.

Results

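The subject is the FOS, JUN and small MAF transcription factors of mouse Th17 cells. The 10 genes were taken by symbol from the 55401 genes of the count table: 4 FOS genes (Fos, Fosb, Fosl1 and Fosl2), 3 JUN genes (Jun, Junb and Jund) and 3 small MAF genes (Maff, Mafg and Mafk). All 10 passed the filter on low counts. FOS and JUN proteins are basic leucine zipper factors that pair with each other to form AP-1, which binds the sequence TGAGTCA or the related TGACGTCA. JUN proteins also pair among themselves and with ATF and BATF proteins, whereas FOS proteins need a partner. Several of these genes are immediate early genes, transcribed within minutes of a stimulus without new protein synthesis. In T cells, AP-1 acts downstream of the T cell receptor and MAP kinases, and in mouse Th17 cells JUNB with BATF and IRF4 holds open the loci of the IL-17 programme. Small MAF proteins lack an activation domain. They repress as homodimers, and as partners of the CNC factors (NRF2 and its relatives) and of BACH proteins they bind the antioxidant response element.

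Messenger RNA had been sequenced in 12 libraries of Th17 cells differentiated from naive T cells of wild-type mouse lymph nodes. The groups, of 3 libraries each, were Kira8+Stattic, Kira8, Stattic and None, with inhibitors given for 4 h. Kira8 is an inhibitor of IRE1alpha, the stress sensor of the endoplasmic reticulum that cuts Xbp1 mRNA to begin its splicing, and Stattic inhibits STAT3, the transcription factor that carries IL-6 and IL-23 signals in Th17 cells. Doses, the age and sex of the mice, the stimulation before harvest and any solvent given to None are not stated in the labels. Nor do they tell if the replicates are separate cultures or animals. All p-values below therefore reflect the spread among these libraries, which may be technical only.

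Kira8 replicate 2 and Stattic replicate 2 stood apart from the other 10 libraries. They held 19.8 and 9.28 M (megacounts), against 51.7 to 85.9 M in the others, and 61.5% and 10.7% of their counts were mitochondrial, against 3.38 to 5.22%. Tests, levels and overlaps between groups below use the 10 other libraries, except where all 12 or the 2 left out are named. This leaves 2 libraries for Kira8 and 2 for Stattic. Calls were made by the quasi-likelihood test of edgeR at an adjusted p under 0.05 over 21239 genes, and changes are log2 changes ± standard error. Levels are CPM, counts divided by the library total and scaled by TMM, which evens out differences in composition between libraries. With all 12 libraries the common dispersion was 1.01, against 0.143 with 10, and edgeR called 0 of the 10 genes in any comparison. The share of all 20993 genes called with 12 libraries was 0% for Kira8 against None, 0.31% for Stattic against None and 0.272% for Kira8+Stattic against None. It was 0% for Kira8+Stattic against Kira8, 0% for Kira8+Stattic against Stattic and 0% for the interaction, where unadjusted p-values under 0.05 numbered 2536, 1050 and 3542 genes (2689 for Kira8 against None). Limma voom with library quality weights, which keeps all 12 libraries and weights down those that stand apart, called 6 of the 10 genes for Kira8+Stattic against None, 8 for Kira8 against None and 6 for Stattic against None. The share of all genes called in that fit was 47.4% for Kira8+Stattic, 22.3% for Kira8 and 37.1% for Stattic.

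The 14 genes of the Th17 list include the general T cell genes Cd3d, Cd3e, Cd3g and Cd4. Their sums were 2809.6 to 3131 CPM in Kira8+Stattic and 3493 to 3643 in Kira8. In Stattic the sums were 3034 to 3155 and in None 3788 to 5867 (marker sums are without TMM scaling). No gene of the list was at 0 in all libraries of a group. Against None, 3 rose and 7 fell in Kira8+Stattic, 2 rose and 4 fell in Kira8, and 4 rose and 6 fell in Stattic. Of all genes tested, 40.8% were called in Kira8+Stattic, 19.3% in Kira8 and 39% in Stattic. Sums of the B cell, the CD8 T and NK cell, and the fibroblast and stromal markers were higher in None than in every treated group. The myeloid sums of Kira8+Stattic and of Kira8 overlapped those of None, and those of Stattic lay below None. The 12 B cell markers summed to 23.5 to 53.4 CPM in Kira8+Stattic, 59.4 to 67.6 in Kira8, 21.9 to 35.9 in Stattic and 167 to 193 in None, and the 12 markers of CD8 T and NK cells to 133 to 219 CPM in Kira8+Stattic, 121 to 154 in Kira8, 235 to 316 in Stattic and 377 to 591 in None. The 12 myeloid markers summed to 38.0 to 143 CPM in Kira8+Stattic, 110.0 to 117 in Kira8, 49.3 to 62.1 in Stattic and 79.0 to 119.9 in None. The 10 fibroblast and stromal markers, of which T cells also express Thy1 and Vim, summed to 688 to 809.6 CPM in Kira8+Stattic, 513 to 546 in Kira8, 778 to 865 in Stattic and 1146 to 1657 in None. The NK receptor gene Ncr1 had 0 counts in all libraries used of the 3 treated groups, Klra8, another NK receptor gene, and the stromal gene Dcn in those of Kira8 and of Stattic, and the collagen gene Col3a1 in those of Stattic. In bulk RNA, fewer cells of a type and less RNA per cell cannot be told apart, and the part of these cells in the results below was not tested.

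Fosb, Fos, Fosl2, Jun, Maff and Mafk were higher in both groups with Stattic, and Kira8 alone raised Fosl2, Jun, Junb, Maff and Mafg. For Kira8+Stattic against None, 6 genes rose (Fos, Fosb, Fosl2, Jun, Maff and Mafk) and 0 fell, where 40.8% of all genes tested were called, 20.8% higher and 20% lower. For Kira8 against None, 5 rose (Fosl2, Jun, Junb, Maff and Mafg) and 2 fell (Fosl1 and Mafk), where 19.3% of all genes were called, 9.7% higher and 9.59% lower. For Stattic against None, the same 6 genes as with the combination rose and Junb fell, where 39% of all genes were called, 20.1% higher and 18.9% lower. The median log2 change of the 10 genes was 1.90 for the combination, 0.76 for Kira8 and 1.70 for Stattic. Over all genes tested the median was 0.089 for the combination, 0 for Kira8 and 0.079 for Stattic. The comparisons share the None libraries, so their values are given side by side and their overlap is not a result.

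**Figure D1:**
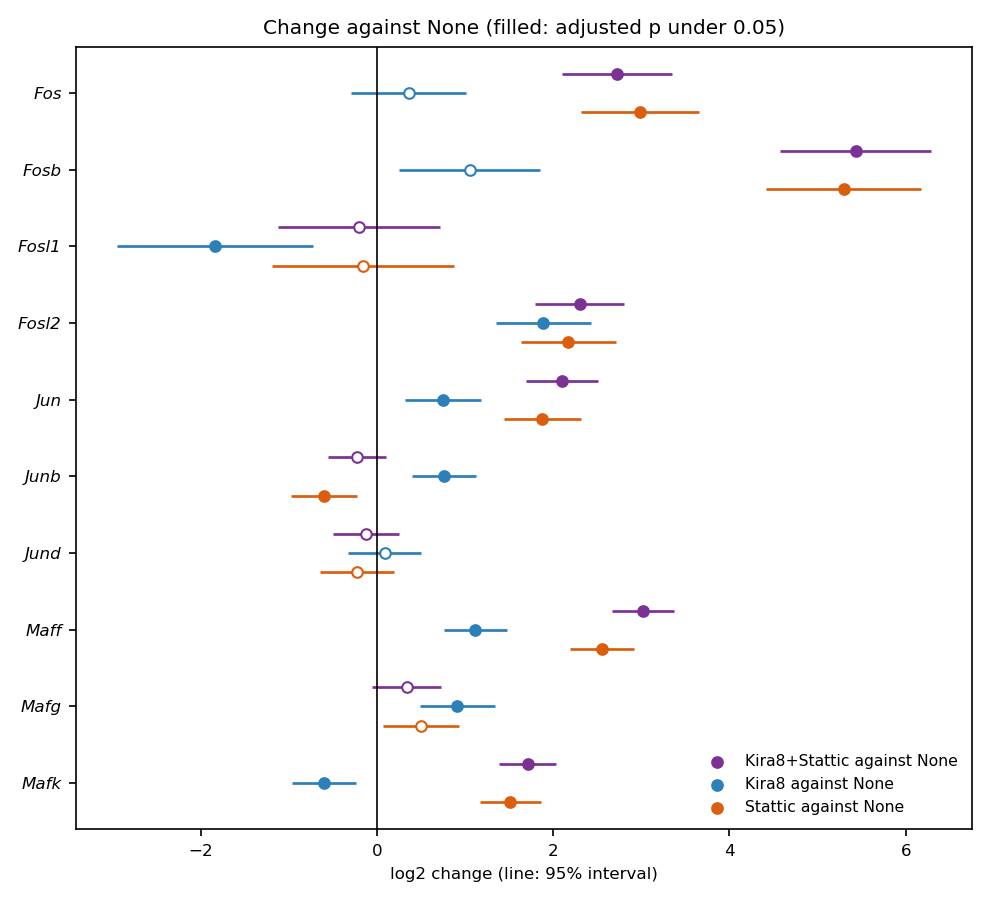
Log2 change against None (x axis) of the 10 genes (rows) in Kira8+Stattic, Kira8 and Stattic, with 95% intervals as lines; filled points passed an adjusted p under 0.05. Fosb, Fos, Fosl2, Jun, Maff and Mafk lie right of 0 in Kira8+Stattic and Stattic, while Mafk lies left of 0 in Kira8.

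Among the 10 genes, Fosb had the largest change against None in Kira8+Stattic and in Stattic. Fosb (ENSMUSG00000003545, chr7:19302696-19310051, minus strand) encodes an activating FOS protein and, by splicing, a truncated form that gene counts do not separate. Fosb had 230.3, 252 and 293 CPM in Kira8+Stattic, 12.5 and 12.4 in Kira8, 199.99 and 269 in Stattic, and 3.04, 10.3 and 4.64 in None. Libraries with Stattic lay far above all libraries without it, with no overlap. Against None, Fosb rose 43.2-fold in Kira8+Stattic (5.43 ± 0.39, adjusted p = 1.55e-06) and 39.3-fold in Stattic (5.30 ± 0.40, adjusted p = 3.75e-06). For Kira8 against None its change of 1.05 ± 0.37 missed the threshold (adjusted p = 0.0654), although both Kira8 libraries lay above all 3 None libraries. None replicate 2 held the highest Fosb of its group. Without it the Kira8 change was 1.69 (adjusted p = 0.00108), and the Kira8 change with Stattic was lower than that without (-1.55, adjusted p = 0.0145, against an adjusted p of 0.309 with it). Fosb also passed for Kira8 against None with DESeq2 (adjusted p = 0.0194), limma voom (0.0251), the filter of more than 1 CPM in 3 libraries (0.0417), quality weights over 12 libraries (0.0487) and the replicate block (a change of 1.43, adjusted p = 0.0089). The Kira8 call of Fosb thus depends on the method.

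Fos (ENSMUSG00000021250, chr12:85473890-85477273, plus strand), the prototype immediate early gene, followed Stattic as well. Fos had 138, 108 and 143 CPM in Kira8+Stattic, 28.4 and 21.9 in Kira8, 151 and 159.9 in Stattic, and 10.2, 25.5 and 23.0 in None. Among the 10 libraries, those with Stattic did not overlap those without it, whereas Kira8 and None overlapped. Fos rose 6.61-fold in Kira8+Stattic against None (2.73 ± 0.29, adjusted p = 1.86e-05) and 7.93-fold in Stattic against None (2.99 ± 0.31, adjusted p = 2.13e-05). The Kira8 change was 0.36 ± 0.30 (adjusted p = 0.459), with a 95% interval of -0.30 to 1.02.

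Fosl2 was high with either inhibitor. Fosl2 (ENSMUSG00000029135, chr5:32135801-32157842, plus strand) encodes FRA-2, a FOS protein without the strong activation domain of FOS that limits plasticity of mouse Th17 cells. Fosl2 had 780.0, 826 and 828 CPM in Kira8+Stattic, 637 and 584 in Kira8, 691 and 796 in Stattic, and 107, 229.7 and 158 in None. All 7 treated libraries lay above the highest None library. Against None it rose 4.92-fold in Kira8+Stattic (2.30 ± 0.23, adjusted p = 1.43e-05), 3.70-fold in Kira8 (1.89 ± 0.25, adjusted p = 0.000402) and 4.51-fold in Stattic (2.17 ± 0.25, adjusted p = 4.45e-05). Of the 10 genes it had the largest Kira8 increase, and its call held without any single library.

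Fosl1 (ENSMUSG00000024912, chr19:5447547-5455946, plus strand), which encodes the related FRA-1, was the least abundant FOS transcript per kb of exon in the 3 treated groups. Fosl1 had 3.69, 7.74 and 8.79 CPM in Kira8+Stattic, 1.09 and 3.27 in Kira8, 4.28 and 9.71 in Stattic, and 7.14, 7.72 and 8.51 in None. Both Kira8 libraries were below all 3 None libraries, and the 2 Kira8 libraries differed widely from each other. The Kira8 change was -1.84 ± 0.51 (adjusted p = 0.0249), and it missed the threshold without Kira8 replicate 1 (adjusted p = 0.201) or None replicate 3 (adjusted p = 0.0529). Neither Stattic (-0.16 ± 0.47) nor Kira8+Stattic (-0.21 ± 0.42) differed from None by the test. Exons of Fosl1 overlap those of Ccdc85b on the opposite strand, and without stated strand use their reads cannot be told apart. Ccdc85b also fell in Kira8 (-0.87 ± 0.20, adjusted p = 0.011), and rose in Stattic (0.91 ± 0.19, adjusted p = 0.00306).

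**Figure D2:**
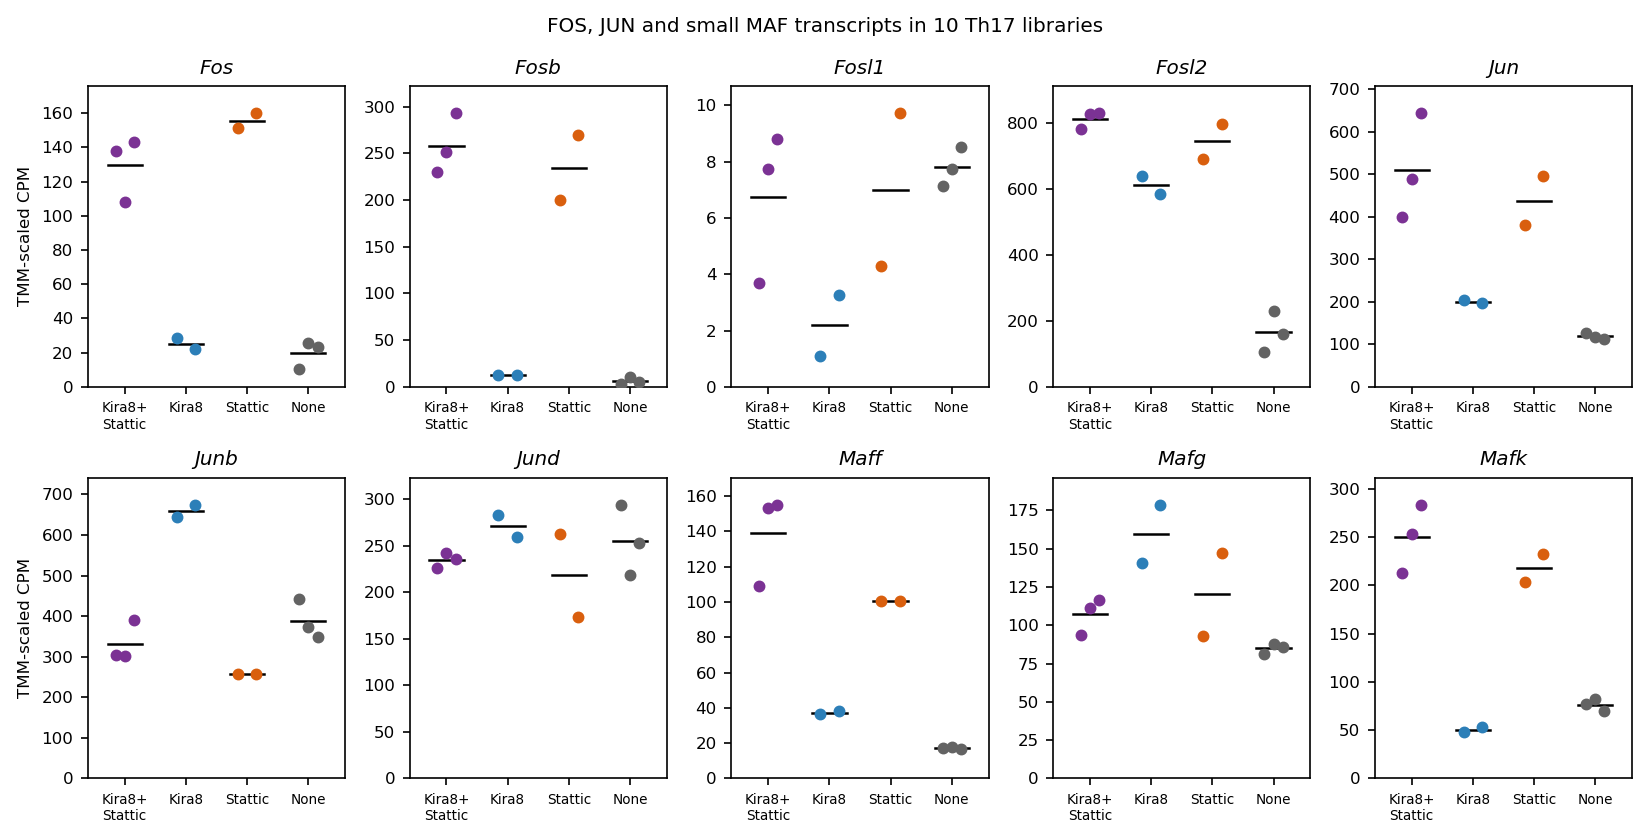
TMM-scaled CPM (y axis, linear from 0) of each of the 10 genes in Kira8+Stattic, Kira8, Stattic and None; points are libraries, bars are group means, and the 2 libraries that stood apart are not drawn. Fosb, Fos, Maff and Mafk are high in both groups with Stattic, Fosl2 in all 3 treated groups, and Junb in Kira8.

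Of the JUN genes, Jun followed both inhibitors and Junb moved in opposite directions. Jun (ENSMUSG00000052684, chr4:95049034-95052222, minus strand) encodes c-JUN, the main target of the JNK kinases. Jun had 400.2, 489 and 644 CPM in Kira8+Stattic, 204 and 197 in Kira8, 380.0 and 495 in Stattic, and 128, 116 and 113 in None. The 2 Kira8 libraries lay between None and the 5 libraries with Stattic, with no overlap on either side. Against None, Jun rose 4.29-fold in Kira8+Stattic (2.10 ± 0.19, adjusted p = 5.32e-06), 1.68-fold in Kira8 (0.75 ± 0.20, adjusted p = 0.0201) and 3.67-fold in Stattic (1.88 ± 0.20, adjusted p = 2.72e-05). The Kira8 call was lost without Kira8 replicate 1 (adjusted p = 0.123), Kira8 replicate 3 (0.106) or None replicate 3 (0.0536). The antisense gene Junos, which overlaps Jun, had 18 to 109 counts in the 10 libraries.

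Junb (ENSMUSG00000052837, chr8:84974484-84978718, minus strand) encodes a weaker activator that binds with BATF in Th17 cells. Junb had 303, 303 and 389.7 CPM in Kira8+Stattic, 643 and 674 in Kira8, 256 and 256 in Stattic, and 442, 373 and 348 in None. Kira8 libraries were the highest and Stattic libraries the lowest, and neither overlapped None. Junb rose 1.70-fold in Kira8 (0.76 ± 0.17, adjusted p = 0.00746) and fell in Stattic (-0.60 ± 0.17, adjusted p = 0.0162). In Kira8+Stattic its change against None was -0.23 ± 0.15 (adjusted p = 0.263). Without Kira8 replicate 1 or 3 the Kira8 call was lost (adjusted p = 0.0533 and 0.0779), and without Stattic replicate 1 or 3 the Stattic call was lost (0.0736 and 0.0842), as it was with quality weights over 12 libraries (0.0807). Prdx2, a peroxidase gene whose exons overlap Junb on the opposite strand, rose in Stattic (0.90 ± 0.21, adjusted p = 0.00566).

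Jund (ENSMUSG00000071076, chr8:70698949-70700616, plus strand), the constitutively expressed JUN gene, was not called in any comparison. Jund had 226, 242 and 235 CPM in Kira8+Stattic, 283 and 259 in Kira8, 263 and 174 in Stattic, and 294, 219 and 253 in None. The antisense gene Gm11175, which overlaps Jund, had 0 to 34 counts in the 10 libraries. Each group overlapped the next in the order of their means. Its 95% interval was -0.50 to 0.25 for Kira8+Stattic against None, -0.33 to 0.50 for Kira8 and -0.64 to 0.19 for Stattic.

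Of the small MAF genes, Maff and Mafg rose and Mafk fell in Kira8. Maff (ENSMUSG00000042622, chr15:79346621-79359076, plus strand) is the small MAF gene known to be induced by stress and inflammatory signals. Maff had 109, 153 and 155 CPM in Kira8+Stattic, 36.4 and 37.9 in Kira8, 101 and 100.3 in Stattic, and 17.0, 18.0 and 16.4 in None. The 4 groups did not overlap, in the order Kira8+Stattic, Stattic, Kira8 and None. Against None, Maff rose 8.12-fold in Kira8+Stattic (3.02 ± 0.16, adjusted p = 2.53e-07), 2.17-fold in Kira8 (1.12 ± 0.17, adjusted p = 0.000812) and 5.86-fold in Stattic (2.55 ± 0.17, adjusted p = 1.43e-06). Leaving out any 1 of the 10 libraries kept these 3 calls.

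Mafk (ENSMUSG00000018143, chr5:139791513-139802653, plus strand), whose product was first known as the small subunit of NF-E2, fell in Kira8 given alone. Mafk had 213, 253 and 283 CPM in Kira8+Stattic, 47.6 and 53.1 in Kira8, 203 and 233 in Stattic, and 76.9, 81.7 and 70.2 in None. Kira8 libraries were below None and libraries with Stattic above it, with no overlap. Mafk changed by -0.60 ± 0.17 in Kira8 against None (adjusted p = 0.0246), a call lost without Kira8 replicate 1 (adjusted p = 0.219), Kira8 replicate 3 (0.115) or None replicate 2 (0.0558). It rose 3.27-fold in Kira8+Stattic against None (1.71 ± 0.15, adjusted p = 4.74e-06) and 2.86-fold in Stattic against None (1.52 ± 0.16, adjusted p = 2.71e-05). Tmem184a, which overlaps it on the opposite strand, had 0 to 35 counts in the 10 libraries.

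Mafg (ENSMUSG00000051510, chr11:120625117-120633600, minus strand), a common partner of NRF2, responded in the other direction to Kira8. Mafg had 93.8, 111 and 116 CPM in Kira8+Stattic, 141 and 179 in Kira8, 93.0 and 147 in Stattic, and 81.0, 87.8 and 85.7 in None. Both Kira8 libraries were above None, and Stattic overlapped both Kira8 and Kira8+Stattic. Mafg rose 1.88-fold in Kira8 against None (0.91 ± 0.20, adjusted p = 0.00697), a call lost without Kira8 replicate 3 (adjusted p = 0.106). Its changes in Kira8+Stattic (0.34 ± 0.18, adjusted p = 0.155) and Stattic (0.50 ± 0.20, adjusted p = 0.0623) missed the threshold against None. The Stattic change passed it with DESeq2 (adjusted p = 0.0347), the filter of more than 1 CPM in 3 libraries (0.0304) and the replicate block (0.0321), and without Stattic replicate 1 (0.79, adjusted p = 0.0112). Without Stattic replicate 3 the change was 0.13. Sirt7 shares exon sequence with Mafg on the same strand, so how reads were divided between them is uncertain. Sirt7 changed by 0.45 ± 0.17 in Kira8 (adjusted p = 0.078).

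The combination was also set against each inhibitor alone. Against Kira8, Kira8+Stattic raised 6 of the 10 genes and lowered 2, where 30.7% of all genes were called, 14.7% higher and 16% lower. The genes that rose were Fosb (4.38 ± 0.44), Fos (2.37 ± 0.33), Mafk (2.31 ± 0.18), Maff (1.90 ± 0.18), Fosl1 (1.63 ± 0.51) and Jun (1.35 ± 0.21). Their adjusted p-values ran up to 0.029, that of Fosl1, whose call was lost without Kira8 replicate 1 (0.226), Kira8+Stattic replicate 2 (0.0728) or Kira8+Stattic replicate 3 (0.0914). Junb fell by 0.99 on the log2 scale (SE 0.17, adjusted p = 0.00099). Mafg also fell (-0.58 ± 0.20, adjusted p = 0.0441), a call lost without either Kira8 library, any Kira8+Stattic library or None replicate 3, with adjusted p-values of up to 0.337. RLE size factors (0.06), no filter on low counts (0.056) and the filter of more than 1 CPM in 3 libraries (0.0515) lost it too. Fosl2, which Stattic raised against None, had a change against Kira8 of 0.41 ± 0.25 (adjusted p = 0.241), which passed when those groups alone were fitted (adjusted p = 0.019).

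Against Stattic, Kira8+Stattic changed 0 of the 10 genes by the test (edgeR, every adjusted p 1), where 0.0141% of all genes were called, 0.00942% higher and 0.00471% lower. Maff had the smallest unadjusted p of the 10 genes (edgeR, 0.0162), with a change of 0.47 ± 0.17 and an interval of 0.10 to 0.84, and was not called. DESeq2 and limma voom called 0 as well. The 95% intervals left room for sizeable changes: -0.65 to 0.93 for Fosb, -0.91 to 0.39 for Fos, -0.42 to 0.67 for Fosl2 and -0.00076 to 0.74 for Junb. For Fosl1 the interval was -1.08 to 0.98.

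The interaction term compares the Kira8 change in the presence of Stattic with the Kira8 change in its absence. Of the 10 genes, 2 had a lower Kira8 change with Stattic than without and 0 a higher one, where 8.52% of all genes were called, 4.55% higher and 3.97% lower. For Fosl2 the Kira8 change was 0.13 ± 0.25 with Stattic and 1.89 ± 0.25 without, a difference of -1.76 ± 0.35 (adjusted p = 0.0111). That call was lost without Kira8 replicate 1 (adjusted p = 0.0568) or Stattic replicate 3 (0.052). For Mafg the Kira8 change was -0.17 ± 0.20 with Stattic and 0.91 ± 0.20 without, a difference of -1.08 ± 0.28 (adjusted p = 0.0346), which was lost in 7 of the 10 leave-one-out fits with adjusted p-values from 0.0532 to 0.183. Mafk had a difference in the other direction (0.79 ± 0.23, adjusted p = 0.0556) that missed the threshold here and passed it with DESeq2 (adjusted p = 0.00753), limma voom (0.0492), scaling by library size alone (0.0397), the filter of more than 1 CPM in 3 libraries (0.0452) and without Kira8+Stattic replicate 1 (0.035). For Junb, which Kira8 raised, the difference was -0.39 ± 0.24 (adjusted p = 0.353), so an unequal Kira8 effect was not detectable.

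**Figure D3:**
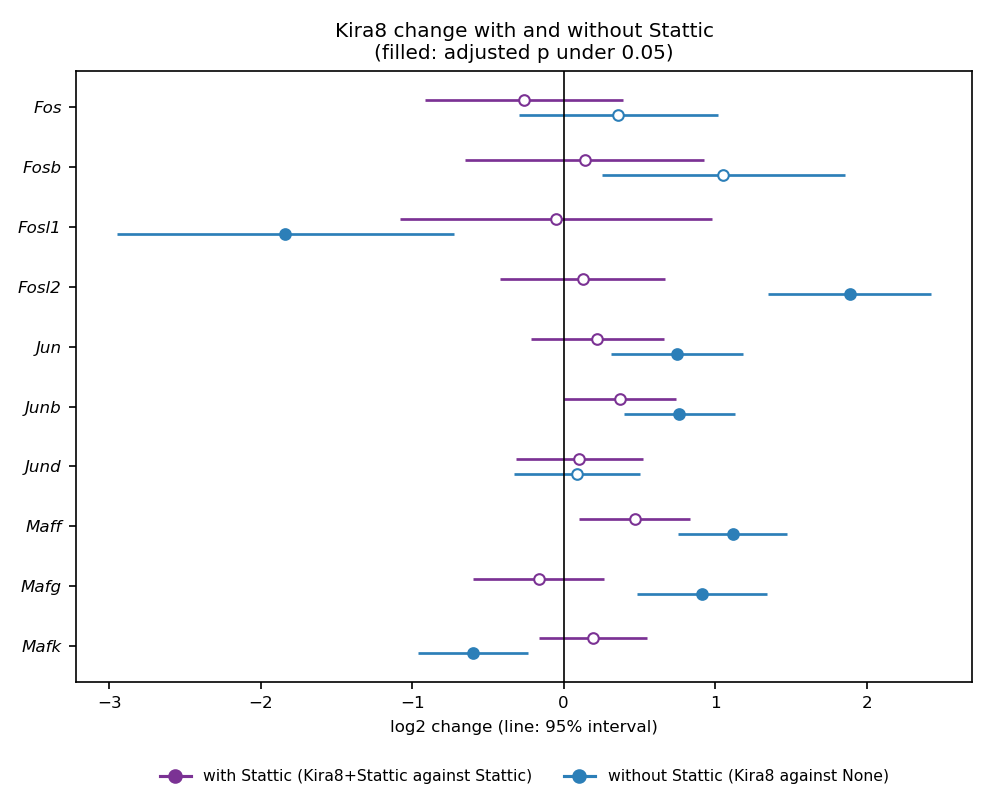
Log2 change made by Kira8 (x axis, lines are 95% intervals) for each of the 10 genes, with Stattic (Kira8+Stattic against Stattic) above and without Stattic (Kira8 against None) below; filled points passed an adjusted p under 0.05. For Fosl2 the change was 0.13 with Stattic and 1.89 without.

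The make-up of each family shifted between groups. Levels were divided by exon length so that genes could be compared, and shares are of the family's summed CPM per kb. FOS transcripts totalled 184 ± 12.2 CPM per kb (SD, n = 3) in Kira8+Stattic, 73.3 and 80.4 in Kira8, 169.8 and 198 in Stattic, and 30.2 ± 10.4 in None. Fosl2 held 45.7 ± 2.73% (SD, n = 3) in Kira8+Stattic, 81.8 and 82.4% in Kira8, 41.5 and 42.0% in Stattic, and 56.3 ± 3.37% in None, so it was the leading FOS transcript in every group. Fosb held 22.5 ± 1.56% (SD, n = 3) in Kira8+Stattic, 2.48 and 2.70% in Kira8, 18.9 and 21.8% in Stattic, and 3.00 ± 0.958% in None, and Fos held 30.0 ± 3.44% (SD, n = 3) in Kira8+Stattic, 12.7 and 15.01% in Kira8, 34.3 and 37.9% in Stattic, and 27.0 ± 4.51% in None. Fosl1 held 1.79 ± 0.669% (SD, n = 3) in Kira8+Stattic, 0.667 and 2.20% in Kira8, 1.24 and 2.41% in Stattic, and 13.7 ± 4.32% in None; its larger share in None stood beside a lower total.

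JUN transcripts totalled 445 ± 61.2 CPM per kb (SD, n = 3) in Kira8+Stattic, 510.0 and 513 in Kira8, 371 and 388 in Stattic, and 359 ± 43.1 in None. The share of Jun was 35.7 ± 3.72% (SD, n = 3) in Kira8+Stattic, 12.1 and 12.4% in Kira8, 30.7 and 41.9% in Stattic, and 10.5 ± 0.631% in None, and that of Junb was 32.4 ± 1.56% (SD, n = 3) in Kira8+Stattic, 54.5 and 57.5% in Kira8, 28.7 and 30.0% in Stattic, and 47.0 ± 2.29% in None. The ratio of Jun to Junb per kb was 0.953, 1.16 and 1.19 in the Kira8+Stattic libraries, 0.229 and 0.21 in Kira8, 1.07 and 1.39 in Stattic, and 0.208, 0.225 and 0.235 in None. Libraries with Stattic and libraries without it did not overlap in this ratio, and Kira8 overlapped None.

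Small MAF transcripts totalled 137 ± 20.8 CPM per kb (SD, n = 3) in Kira8+Stattic, 51.3 and 60.1 in Kira8, 108 and 125 in Stattic, and 41.3 ± 2.02 in None. Mafg held 14.0 ± 0.629% (SD, n = 3) in Kira8+Stattic, 48.9 and 53.0% in Kira8, 15.4 and 21.1% in Stattic, and 36.6 ± 1.67% in None. Maff held 39.1 ± 1.97% (SD, n = 3) in Kira8+Stattic, 24.3 and 27.4% in Kira8, 31.0 and 36.1% in Stattic, and 16.0 ± 0.107% in None, and Mafk held 46.9 ± 1.57% (SD, n = 3) in Kira8+Stattic, 22.7 and 23.8% in Kira8, 47.9 and 48.5% in Stattic, and 47.3 ± 1.62% in None. Kira8 was therefore the group with the largest Mafg share and the smallest Mafk share, in both of its libraries.

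**Figure D4:**
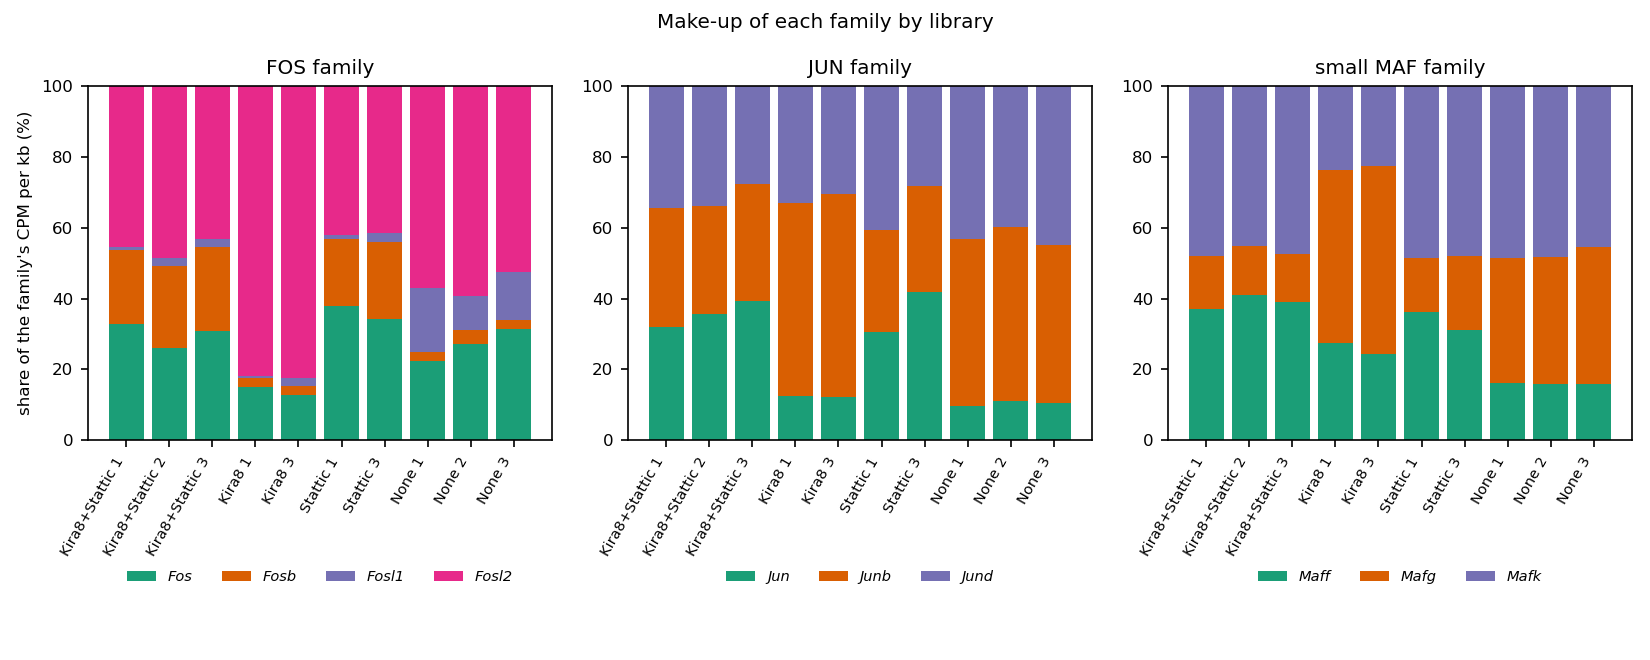
Share of each gene in its family's summed CPM per kb of exon (y axis, percent, bars from 0 to 100) in each of the 10 libraries, in the order Kira8+Stattic, Kira8, Stattic and None. Fosl2 fills over 80% of the FOS bar in both Kira8 libraries, Jun is wider in all 5 libraries with Stattic, and Mafg is wider in Kira8.

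The promoters of 4 of the 6 genes that rose in both groups with Stattic, Fosb, Fos, Jun and Maff, are shown with that of Junb, which did not. Each runs 5′ to 3′ from 250 bases before to 50 after the annotated start (RefSeq, GRCm38.p6). Capitals mark the half-site TGACG of the cAMP response element (CRE) on either strand, the full CRE TGACGTCA, and TGACATCA, the CRE-like AP-1 site known from the human JUN promoter.
Fosb, chr7:19309996-19310295, minus strand: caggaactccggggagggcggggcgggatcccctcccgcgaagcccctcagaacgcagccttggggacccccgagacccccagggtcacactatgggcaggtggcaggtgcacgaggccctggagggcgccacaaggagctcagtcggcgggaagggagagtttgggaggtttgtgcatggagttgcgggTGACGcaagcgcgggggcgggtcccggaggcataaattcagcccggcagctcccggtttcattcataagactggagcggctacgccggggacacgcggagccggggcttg
Fos, chr12:85473640-85473939, plus strand: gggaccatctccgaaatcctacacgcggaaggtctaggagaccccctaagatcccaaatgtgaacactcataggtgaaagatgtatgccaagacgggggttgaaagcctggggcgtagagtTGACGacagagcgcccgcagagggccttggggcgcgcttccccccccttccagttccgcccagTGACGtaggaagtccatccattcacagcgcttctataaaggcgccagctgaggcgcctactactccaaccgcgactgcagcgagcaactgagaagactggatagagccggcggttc
Jun, chr4:95052173-95052472, minus strand: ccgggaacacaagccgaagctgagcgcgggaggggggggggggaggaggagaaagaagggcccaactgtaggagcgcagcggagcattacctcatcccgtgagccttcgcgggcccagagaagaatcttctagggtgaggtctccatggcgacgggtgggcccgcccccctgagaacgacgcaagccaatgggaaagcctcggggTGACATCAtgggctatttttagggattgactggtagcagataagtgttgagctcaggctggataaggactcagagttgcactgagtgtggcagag
Maff, chr15:79347270-79347569, plus strand: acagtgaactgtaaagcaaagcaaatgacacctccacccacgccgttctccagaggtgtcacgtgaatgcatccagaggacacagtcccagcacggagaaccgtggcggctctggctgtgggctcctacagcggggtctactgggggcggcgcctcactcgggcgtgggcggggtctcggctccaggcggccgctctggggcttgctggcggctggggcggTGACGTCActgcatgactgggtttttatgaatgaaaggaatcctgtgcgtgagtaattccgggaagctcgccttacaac
Junb, chr8:84978699-84978998, minus strand: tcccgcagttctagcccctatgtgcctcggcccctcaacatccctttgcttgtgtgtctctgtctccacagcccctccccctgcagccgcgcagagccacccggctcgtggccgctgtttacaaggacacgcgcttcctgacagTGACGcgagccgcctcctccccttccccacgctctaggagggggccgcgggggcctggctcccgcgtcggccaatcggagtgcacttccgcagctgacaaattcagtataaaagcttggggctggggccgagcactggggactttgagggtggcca

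RefSeq gave 11 promoters for 9 of the 10 genes, 3 of them for Maff. TGACG, searched on both strands, was in 7 of the 11 promoters and in 20.8% of all 32851 promoters of the same length. In Fos it lay 129 and 66 bases before the start, in Fosb 60 bases before and in Junb 106 bases before. Junb, which fell in Stattic, thus also carried the half-site. Mafk, not shown, carried TGACG 41 bases before its start. Fosl2, also not shown though it rose in both groups with Stattic, had none of the marked motifs, nor had the upstream Maff promoter. TGACGTCA, which contains TGACG on both strands, was in 1 of the 11, the Maff promoter shown, 29 bases before the start, and in 1.79% of all promoters. TGACATCA was in 2 of the 11, at 45 bases before the start of Jun and of the downstream Maff promoter, and in 3.62% of all. The AP-1 site TGAGTCA was in 0 of the 11 and in 5.2% of all promoters. Of the antioxidant element core TGACNNNGC there was a match in 3 of the 11 (Mafk, Mafg and the upstream Maff promoter) and in 12.4% of all. A match describes these letters and does not show binding, and no match says only that the letters are not in this window.

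The partners of JUN outside the FOS family changed in part. Of 10 ATF, BATF and JDP genes, 5 rose and 3 fell in Kira8+Stattic, 3 rose and 1 fell in Kira8 and 5 rose and 2 fell in Stattic, each against None. Of all genes tested, 40.8% were called in Kira8+Stattic, 19.3% in Kira8 and 39% in Stattic. The median log2 change of the list was 0.49 in Kira8+Stattic, 0.42 in Kira8 and 0.33 in Stattic. Atf3, a stress-induced factor that pairs with JUN, averaged 137 CPM in Kira8+Stattic, 14.6 in Kira8, 133 in Stattic and 22.2 in None. It rose in Kira8+Stattic (2.62 ± 0.33, adjusted p = 7.11e-05) and in Stattic (2.59 ± 0.35, adjusted p = 0.00015). Jdp2, which encodes a JUN dimerization protein that represses AP-1, averaged 10.2 CPM in Kira8+Stattic, 10.1 in Kira8, 6.69 in Stattic and 1.93 in None. It rose in Kira8+Stattic (2.41 ± 0.34, adjusted p = 0.000154) and in Kira8 (2.38 ± 0.36, adjusted p = 0.000958). Crem, a cAMP-responsive factor, averaged 197 CPM in Kira8+Stattic, 188 in Kira8, 184 in Stattic and 56.2 in None and rose in Kira8+Stattic (1.81 ± 0.26), Kira8 (1.74 ± 0.28) and Stattic (1.71 ± 0.28). Batf3, which encodes a BATF family factor, averaged 10.7 CPM in Kira8+Stattic, 5.15 in Kira8, 12.1 in Stattic and 17.8 in None and fell in Kira8 (-1.78 ± 0.24, adjusted p = 0.000461).

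Partners of small MAF proteins were read together with the large MAF genes. Of 9 CNC, BACH and large MAF genes 8 were tested, of which 5 rose and 1 fell in Kira8+Stattic, 2 rose and 0 fell in Kira8 and 5 rose and 2 fell in Stattic, beside 40.8%, 19.3% and 39% of all genes called in Kira8+Stattic, Kira8 and Stattic. The Kira8 count, 2 of 8, was near its share of all genes. The median log2 changes of the list were 1.71 in Kira8+Stattic, 0.50 in Kira8 and 1.78 in Stattic. Nfe2l2, which encodes NRF2, averaged 123 CPM in Kira8+Stattic, 86.8 in Kira8, 133 in Stattic and 42.8 in None and rose in Kira8+Stattic (1.52 ± 0.14, adjusted p = 7.27e-06), Kira8 (1.02 ± 0.15, adjusted p = 0.00089) and Stattic (1.64 ± 0.15, adjusted p = 1.19e-05). As for Fosl2 and Mafg, its Kira8 change was smaller with Stattic than without (-1.13 ± 0.22, adjusted p = 0.00983). Bach1, the repressor that competes with NRF2 for small MAF partners, averaged 197 CPM in Kira8+Stattic, 37.6 in Kira8, 168 in Stattic and 44.4 in None and rose in Kira8+Stattic against None (2.15 ± 0.31, adjusted p = 0.000162). Mafa, a large MAF gene best known in pancreatic beta cells, averaged 7.63 CPM in Kira8+Stattic, 0.506 in Kira8, 4.83 in Stattic and 0.176 in None. Maf, the large MAF gene that promotes IL-10 in Th17 cells, averaged 168 CPM in Kira8+Stattic, 434 in Kira8, 151 in Stattic and 314 in None and fell in Kira8+Stattic against Kira8 (-1.37 ± 0.16, adjusted p = 0.000132).

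**Figure D5:**
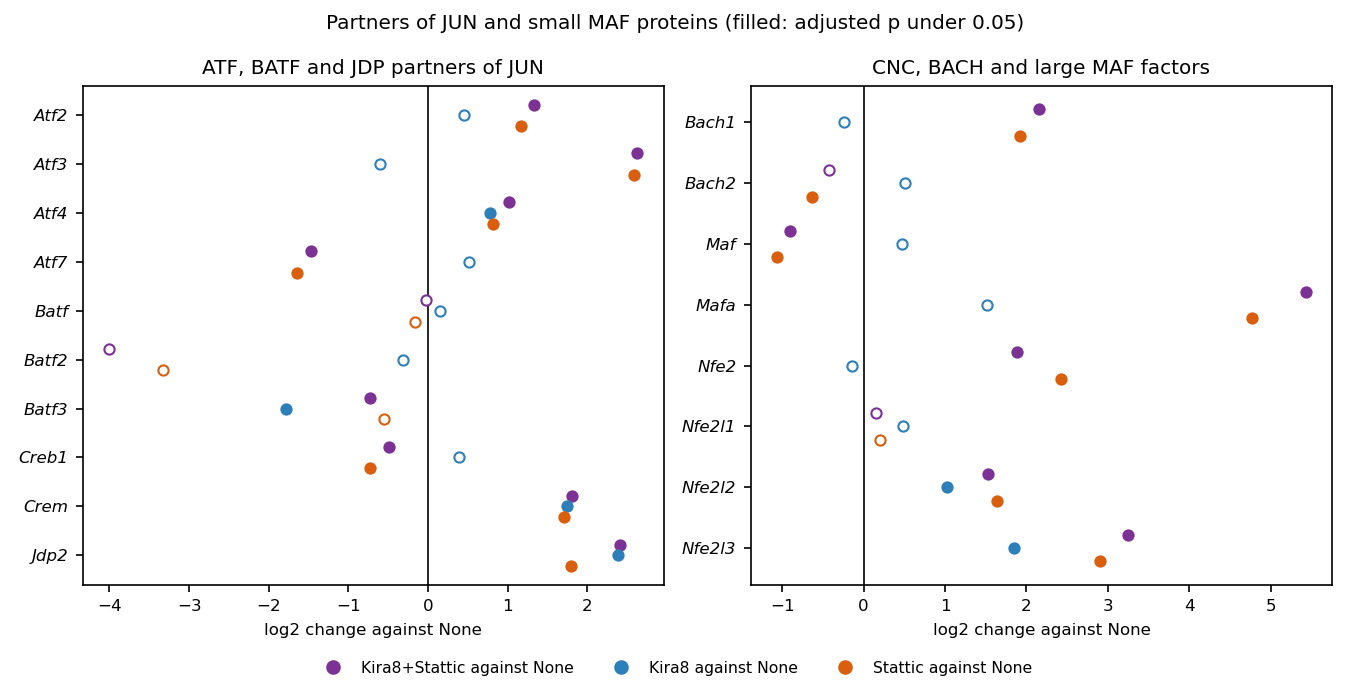
Log2 change against None (x axis) of genes that encode partners of JUN (left) and partners of small MAF proteins together with large MAF genes (right), in Kira8+Stattic, Kira8 and Stattic; filled points passed an adjusted p under 0.05, and genes not tested are not drawn. Mafa lies farthest right in its panel in both groups with Stattic, and Atf2 and Atf3 rose in those groups.

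Genes upstream of AP-1 moved both ways. Of 16 MAP kinase genes, 6 rose and 3 fell in Kira8+Stattic, 2 rose and 1 fell in Kira8 and 6 rose and 1 fell in Stattic, where 40.8%, 19.3% and 39% of all genes were called. The Kira8 count, 3 of 16, and the Stattic count were near their shares of all genes. The median log2 changes of the list were 0.18 in Kira8+Stattic, 0.14 in Kira8 and 0.17 in Stattic. Map3k1, a kinase that feeds the JNK branch, averaged 251 CPM in Kira8+Stattic, 180.4 in Kira8, 256 in Stattic and 59.1 in None and rose in all 3, with a smaller Kira8 change when Stattic was present (-1.64 ± 0.29, adjusted p = 0.00769). Map2k7, a JNK activator, averaged 56.0 CPM in Kira8+Stattic, 104 in Kira8, 51.3 in Stattic and 91.4 in None and fell in Kira8+Stattic (-0.71 ± 0.15, adjusted p = 0.0023) and in Stattic (-0.83 ± 0.17, adjusted p = 0.00207). Of the 6 genes for SRF, the ternary complex factors and their MRTF relatives, which act on the serum response element of Fos, 0 rose and 2 fell in Kira8+Stattic, 1 rose and 0 fell in Kira8 and 1 rose and 2 fell in Stattic. These counts of 2, 1 and 3 are also near the shares of all genes called. Srf itself averaged 68.8 CPM in Kira8+Stattic, 67.6 in Kira8, 69.2 in Stattic and 83.1 in None, with changes of -0.27 ± 0.14 in Kira8+Stattic and -0.30 ± 0.16 in Kira8, with adjusted p-values of 0.139 and 0.219.

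Other immediate early genes changed in every treated group. Of 20 such genes, 11 rose and 2 fell in Kira8+Stattic, 5 rose and 5 fell in Kira8 and 11 rose and 2 fell in Stattic. Of all genes tested, 20.8% rose and 20% fell in Kira8+Stattic, 9.7% rose and 9.59% fell in Kira8, and 20.1% rose and 18.9% fell in Stattic. The difference between the groups' counts was not tested. The median log2 changes of the list were 1.52 in Kira8+Stattic, -0.095 in Kira8 and 1.32 in Stattic. Klf4, a zinc finger factor, averaged 116 CPM in Kira8+Stattic, 20.6 in Kira8, 113 in Stattic and 4.71 in None, and rose in Kira8+Stattic (4.63 ± 0.28), Kira8 (2.13 ± 0.28) and Stattic (4.58 ± 0.29). Dusp1, the phosphatase that switches off JNK and p38, averaged 126 CPM in Kira8+Stattic, 41.8 in Kira8, 107 in Stattic and 12.4 in None and rose in all 3 as well. Egr2, a zinc finger factor induced by the T cell receptor, instead fell in Kira8: it averaged 145 CPM in Kira8+Stattic, 32.6 in Kira8, 166 in Stattic and 149 in None (-2.20 ± 0.22, adjusted p = 0.000108 for Kira8 against None). Its Kira8 change with Stattic exceeded that without (2.00 ± 0.30, adjusted p = 0.00342).

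Genes known as AP-1 targets in other settings moved both ways. Of 20 target genes 19 were tested, of which 4 rose and 8 fell in Kira8+Stattic, 2 rose and 9 fell in Kira8 and 5 rose and 5 fell in Stattic. The shares of all genes called were 40.8% in Kira8+Stattic, 19.3% in Kira8 and 39% in Stattic. The median log2 changes of the list were -0.11 in Kira8+Stattic, -0.98 in Kira8 and 0.36 in Stattic. Cytokine genes were among those that fell: Ifng, which encodes interferon gamma, averaged 8.37 CPM in Kira8+Stattic, 9.52 in Kira8, 13.1 in Stattic and 169 in None (-4.33 ± 0.46, adjusted p = 2.02e-05 for Kira8+Stattic and -4.15 ± 0.55, adjusted p = 0.000415 for Kira8). Csf2, which encodes GM-CSF, averaged 0.376 CPM in Kira8+Stattic, 1.1 in Kira8, 0.388 in Stattic and 9.79 in None, and fell in Kira8+Stattic (-4.68 ± 0.49, adjusted p = 1.74e-05) and Stattic (-4.65 ± 0.59, adjusted p = 8.91e-05). The vascular growth factor gene Vegfa rose instead, with averages of 284 CPM in Kira8+Stattic, 51.3 in Kira8, 237 in Stattic and 28.9 in None (3.30 ± 0.23, adjusted p = 1.27e-06 for Kira8+Stattic and 3.04 ± 0.24, adjusted p = 4.37e-06 for Stattic). Hbegf, an EGF receptor ligand, averaged 41.3 CPM in Kira8+Stattic, 5.56 in Kira8, 41.0 in Stattic and 20.0 in None, and it rose in Kira8+Stattic against Kira8 (2.89 ± 0.32, adjusted p = 8.04e-05).

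Targets of NRF2 with small MAF partners changed in part. Of 14 genes, 5 rose and 2 fell in Kira8+Stattic, 1 rose and 0 fell in Kira8 and 5 rose and 2 fell in Stattic, where 40.8%, 19.3% and 39% of all genes were called. The counts in the groups with Stattic were thus near the share of all genes, and the difference between the groups' counts was not tested. The median log2 changes of the list were 0.19 in Kira8+Stattic, -0.047 in Kira8 and 0.21 in Stattic. Hmox1, the haem oxygenase gene that BACH1 represses, averaged 173 CPM in Kira8+Stattic, 12.3 in Kira8, 201 in Stattic and 10.1 in None and rose in Kira8+Stattic (4.10 ± 0.37, adjusted p = 6.13e-06) and Stattic (4.32 ± 0.39, adjusted p = 9.09e-06). Sqstm1, the autophagy receptor p62, averaged 475 CPM in Kira8+Stattic, 434 in Kira8, 473 in Stattic and 120.3 in None and rose in Kira8+Stattic (1.98 ± 0.20, adjusted p = 1.37e-05), Kira8 (1.85 ± 0.21, adjusted p = 0.000211) and Stattic (1.98 ± 0.21, adjusted p = 3.16e-05). Gsr, glutathione reductase, averaged 19.7 CPM in Kira8+Stattic, 44.9 in Kira8, 21.8 in Stattic and 50.9 in None and fell in Kira8+Stattic (-1.37 ± 0.16, adjusted p = 4.38e-05) and Stattic (-1.22 ± 0.19, adjusted p = 0.000327).

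The genes most like each member were sought by the root mean squared difference of centred log2(CPM + 0.5) over the 10 libraries. The search covered 9658 genes with a mean of at least 5 CPM, without genes that lack a symbol or have a Gm-number or Rik symbol. For Fosl2 the nearest was Pde4d (difference 0.135), then Pde4b (0.199), both cAMP phosphodiesterase genes, and Atp10d (0.213). Pde4d averaged 189 CPM in Kira8+Stattic, 144 in Kira8, 181 in Stattic and 44.4 in None. Nearest to Jun were Arid5b (0.131), Ing2 (0.144) and Slc25a38 (0.147), and nearest to Maff were Oser1 (0.104), Acsl3 (0.191) and Jmy (0.224). Fos was less closely matched, with Tsc22d2 (0.284), Nr4a2 (0.291) and Lpin2 (0.347), and for Fosb the nearest gene, Hspa2, was at 0.363. Mafk lay nearest to Higd1a (0.167), Nab2 (0.169) and Glul (0.175). Junb had Vps9d1 (0.17), Fibp (0.171) and Stk25 (0.175) as nearest genes.

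In the 2 libraries left out, the genes did not all keep the pattern of their groups. Stattic replicate 2 had 247 counts of Fosb (26.6 CPM, not TMM-scaled), 101 of Fos (10.9 CPM), 14 of Maff (1.51 CPM) and 1065 of Jund (115 CPM). In CPM without TMM scaling, its Maff was below every None library (17.1 to 18.8 CPM). So was its Jun with 153 counts (16.5 CPM, against 119 to 141 in None). Its Fos was close to that of None replicate 1 (11.3 CPM) and below None replicates 2 and 3 (26.3 and 24.1 CPM). Its Mafg, with 987 counts (106 CPM), lay between those of Stattic replicates 1 and 3 (86.5 and 142.5 CPM). Kira8 replicate 2 had 0 counts of Fosb and 0 of Fosl1, each of which allows up to 0.151 CPM (3 counts), and 8 counts of Fos. Fosl2 had 461 counts there (23.3 CPM), Junb 338 (17.1 CPM) and Maff 57 (2.88 CPM). These floors cover counting error only.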

How the data were processed

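The deposited table holds the authors' raw counts for 55401 Ensembl genes in 12 libraries. Per the submitters' processing notes the build was mm10. No source used here gives the aligner, the counter, the annotation or the use of strand. Per the labels' protocols, RNA was extracted with Trizol. Symbols and positions came from GENCODE mouse release M 21 (GRCm38), matched on the gene identifier for 55141 genes; promoters came from RefSeq.

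From the counts, genes kept by filterByExpr went through TMM scaling and the quasi-likelihood test of edgeR (4.0.16, R 4.3.3) in 1 fit of 4 groups over 10 libraries, without Kira8 replicate 2 and Stattic replicate 2, with Benjamini-Hochberg adjustment over 21239 genes. The fit of all 12 libraries covered 20993 genes. The standard error is the log2 change over the square root of F, and intervals are 95%. The scripts were tested on simulated data. No library was a copy of another of its group: the lowest chi-square per gene between replicates was 30.0. Libraries of different groups were not compared in this way. Columns that matched no sample numbered 0.

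There were 6 comparisons: each treated group against None, Kira8+Stattic against Kira8 and against Stattic, and their interaction. Of each list, up to 4 genes per comparison with the smallest adjusted p could be named. A gene of the list of CNC, BACH and large MAF factors is not reported here, and the list's counts leave it out. The members, the lists and the choice of 10 libraries were made with earlier results of these data known. Alternatives were all 12 libraries, limma voom (3.58.1) with and without library quality weights, DESeq2 (1.42.0), RLE factors, library size alone, no filter, more than 1 CPM in 3 libraries, only the groups compared, the replicate number as a block, and leaving out each library.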

Additional observations from a re-analysis of the deposited data

Results flagged for a closer look

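Among the 10 genes, Fosl2 and Mafg passed the threshold for a different Kira8 response with and without Stattic, by the interaction term of the edgeR fit. Of all genes tested, 8.52% were called for this term. Both calls were lost in some leave-one-out fits, as given above with the interaction. For Fosl2 the effect of Kira8 in the presence of Stattic minus its effect in the absence of Stattic was -1.76 ± 0.35 on the log2 scale (adjusted p = 0.0111), with both Kira8 libraries above all 3 None libraries and the Kira8+Stattic and Stattic libraries overlapping. For Mafg the same difference was -1.08 ± 0.28 (adjusted p = 0.0346), and again both Kira8 libraries were above None while Kira8+Stattic and Stattic overlapped. With all 12 libraries the difference was -0.76 ± 1.17 for Fosl2 and -1.06 ± 0.45 for Mafg, and neither passed the threshold.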

How the results depend on the processing

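With all 12 libraries the number of the 10 genes called was 0 for Kira8, Stattic and Kira8+Stattic against None, for Kira8+Stattic against Kira8 and for the interaction. With 10 libraries these numbers were 7, 7, 6, 8 and 2, and leaving out 1 library at a time gave 3 to 7, 6 to 7, 6 to 6, 6 to 8 and 0 to 3. Kira8 against None fell to 3 calls without Kira8 replicate 1 or 3, and the interaction to 0 without Kira8 replicate 1 or Stattic replicate 3 and to 1 without Kira8 replicate 3, Kira8+Stattic replicate 2 or 3, or None replicate 3. Kira8+Stattic against Stattic had 0 calls in all. Every other alternative kept each count within 1.5 times. Leaving out a Kira8 or Stattic library left 1 library in that group. The share of all genes called was not computed for the leave-one-out fits or the replicate block. Whether a change in these counts is particular to the 10 genes was therefore not tested.

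The changes of Fos, Fosb, Fosl2, Jun, Maff and Mafk in Stattic and in Kira8+Stattic against None kept direction and call in every alternative with 10 libraries. With all 12 libraries the sign of some changes turned: Fos (-0.16) and Jund (-0.39) in Kira8 against None, Jund (0.25) in Kira8+Stattic against Kira8, and Fos (0.26) and Fosl1 (0.53) in Kira8+Stattic against Stattic. For the interaction those were Fos (0.43), Fosb (0.13), Jun (0.52), Junb (0.65) and Maff (0.28). In Kira8+Stattic against Stattic, Fosl1 was 0.099 with quality weights and 0.012 with limma voom. None of these was called in either fit. Leaving out 1 library turned signs in these ranges: for Fosl1, -0.86 to 0.31 in Stattic against None, -0.44 to 0.046 in Kira8+Stattic against None and -0.52 to 0.66 in Kira8+Stattic against Stattic. For Jund they were -0.013 to 0.201 in Kira8 against None, -0.56 to 0.043 in Stattic against None, -0.16 to 0.44 in Kira8+Stattic against Stattic and -0.25 to 0.35 for the interaction. In Kira8+Stattic against Stattic, Fosb ran from -0.056 to 0.37 and Mafg from -0.46 to 0.21. The cause was not tested.

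Same-numbered libraries had correlations of 0.0166 to 0.218 in their deviations, all positive but not all above 0.1. Libraries of different numbers had correlations of -0.151 to 0.074. The main fit left the number out, and whether a shared number marks a shared origin was not tested. With the replicate block the counts were 8, 8, 6, 8, 0 and 3, the interaction of Fosl1 passed (adjusted p = 0.0345), and Fosb (-0.051) and Fosl2 (-0.0049) turned sign in Kira8+Stattic against Stattic. Scaling by library size alone moved the median of all genes by -0.16 in Stattic, -0.15 in Kira8+Stattic (both against None) and -0.12 in Kira8+Stattic against Kira8, and turned no sign among the 10 genes.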
